A study of Mus musculus with 6 samples.

Results

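AP-1 is a family of transcription factors that bind DNA as pairs of proteins. Here 9 of its genes (Fos, Fosb, Fosl1, Jun, Junb, Jund, Batf3, Atf3 and Jdp2) were examined in control and RTF1-deficient mouse Th17 cells. The members were taken by gene symbol from a table of read counts for 31017 genes, which lists all 9. All 9 also passed the filter on low counts and were among the 14268 genes tested. The data are 3 control libraries, whose genotype is labelled WT, and 3 libraries labelled KO, which the series describes as RTF1-deficient, from Th17 cells (interleukin 17-producing helper T cells) differentiated in vitro. The allele, any Cre driver, the strain, the age of the mice and the culture times are not given in the sources used here. Nor is it stated whether replicates came from separate mice or cultures. The p-values therefore measure the spread between these libraries, which may be in part technical.

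AP-1 proteins carry a basic region that grips DNA and a leucine zipper that holds a pair together. FOS proteins do not pair with one another and need a JUN partner, whereas JUN proteins also pair among themselves. BATF proteins lack the activation domains of FOS and pair with JUN proteins, and in T cells such pairs bind composite sites together with IRF4. ATF3 and JDP2 mostly act as repressors. Many AP-1 genes are immediate early genes, switched on within minutes of stimulation through MAP kinases and the serum response factor, and their transcripts are short-lived.

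Of the 9 members, Fos and Jun were higher and Batf3 was lower in KO, while Fosb, Fosl1, Junb, Jund, Atf3 and Jdp2 did not pass the test. A gene was called when its Benjamini-Hochberg adjusted p-value over all tested genes in edgeR's quasi-likelihood test was below 0.05. The 3 calls make 33.3% of the members, where 46.1% of all tested genes were called, 23.2% higher and 22.9% lower. With the replicate number as a block, Fosb and Atf3 were called too, which made 5 members (55.6%) beside 53.5% of all tested genes, so the members' share lay on either side of the background depending on the fit. All 3 changed at least 2-fold, as did 22.3% of all tested genes while being called. In the same 3 members the KO libraries did not overlap the control libraries, against 57.9% of all tested genes. The median log2 fold change was −0.02 over the members and 0.013 over all tested genes.

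The sequences just upstream of the start sites are shown for both members that rose, and for Fosb, the FOS relative of Fos. They are the 250 bases before the RefSeq start on assembly GRCm38.p6, read from 5′ to 3′ on the gene's strand. The Fos window lies at chr12:85473640-85473889, plus strand, that of Jun at chr4:95052223-95052472, minus strand, and that of Fosb at chr7:19310046-19310295, minus strand. The last bases of the Fosb window lie within the GENCODE gene, whose start differs slightly. The window of Batf3 overlaps annotated exons of that gene over a longer stretch and is not shown. Capitals mark matches on either strand to the cyclic AMP response element TGACGTCA, the shorter word TGACG that lies within it, the AP-1 element TGANTCA, its longer variant TGACATCA, or the CArG box, to which the serum response factor binds.
Fos: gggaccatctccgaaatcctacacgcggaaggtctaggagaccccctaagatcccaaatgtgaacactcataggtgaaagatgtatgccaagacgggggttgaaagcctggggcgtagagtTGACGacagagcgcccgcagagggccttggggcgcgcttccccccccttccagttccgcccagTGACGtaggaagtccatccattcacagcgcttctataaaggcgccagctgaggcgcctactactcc
Jun: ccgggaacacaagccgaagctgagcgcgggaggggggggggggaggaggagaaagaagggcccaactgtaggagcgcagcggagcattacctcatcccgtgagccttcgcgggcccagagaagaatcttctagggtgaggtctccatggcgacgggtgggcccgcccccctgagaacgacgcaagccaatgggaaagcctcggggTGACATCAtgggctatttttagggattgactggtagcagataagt
Fosb: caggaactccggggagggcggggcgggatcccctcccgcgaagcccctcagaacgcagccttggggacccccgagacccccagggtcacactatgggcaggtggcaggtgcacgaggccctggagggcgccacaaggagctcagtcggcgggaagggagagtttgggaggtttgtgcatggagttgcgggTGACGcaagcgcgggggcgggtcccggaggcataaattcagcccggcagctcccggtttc

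The Fos window held TGACG at 2 places, starting 129 and 66 bases before the start site, and the Fosb window held it once, 60 bases before the start. In the Jun window TGACATCA began 45 bases before the start, while none of these letter patterns occurred in the Batf3 window. TGACG was found in 17.8% and TGACATCA in 2.93% of 32851 promoter windows of the same length. TGACGTCA (1.55% of windows), TGANTCA (6.75%) and the CArG box (1.47%) had no match in the windows of Fos, Jun, Fosb or Batf3. Sequence farther upstream was not searched, so these absences hold for the windows only. They do not show that Fos lacks a CArG box, which may lie beyond its window. Among members that did not pass the test, TGACG also occurred in the windows of Junb (106 bases before the start) and Atf3 (7 bases before the start, as its complement) and in 1 of 3 windows of Jdp2. A match is a string of letters and not a measured binding site. The table of promoters matched 8 of the 9 members.

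Values given as triples are those of replicates 1, 2 and 3 in that order. Library totals ranged from 16489813 to 51271226 counts. Rtf1 itself was checked first. It fell from 91.2 ± 2.84 to 33.9 ± 10.03 CPM, the unit of normalised read counts after TMM scaling (mean ± SD, n = 3). The log2 difference was −1.42 (SE 0.191, edgeR adjusted p = 0.000755), without overlap between the groups. Control libraries had 94.0, 91.2 and 88.3 CPM, and KO libraries still had 45.3, 30.4 and 26.2 CPM. The Rtf1 transcript was thus reduced but not absent, and these counts do not measure the protein. The 7 markers of helper T and Th17 cells were each detected in every library. Their summed level ran from 2063 to 2671 CPM in control and from 1051 to 1656 CPM in KO, and 1 rose while 5 fell. The number that fell was 3 without control replicate 2 or KO replicate 3, and 2 without KO replicate 2. Markers of other cell types were scarce. The 8 myeloid markers summed to 0.784 to 0.851 CPM in control and 2.32 to 4.40 CPM in KO, with 1 of 2 tested genes (Csf1r) called higher. The 5 B cell markers reached at most 2.23 CPM in control and 2.58 CPM in KO, and the 5 fibroblast markers at most 0.665 and 0.797 CPM. For the 6 CD8 T and NK cell markers the sums were 7.60 to 11.3 CPM in control and 7.13 to 12.8 CPM in KO. Ncr1 and Klrb1c were at 0 counts in every library. Most of each sum was Cd8b1, with 7.91 ± 1.76 CPM in control and 6.42 ± 1.97 CPM in KO (SD, n = 3). The sums therefore say little about Eomes, the 1 gene called higher. Eomes went from 0.099 ± 0.0574 to 1.55 ± 0.603 CPM (edgeR adjusted p = 0.000946). The 5 erythroid markers gave 1.18 to 2.92 CPM in control and 0.988 to 2.03 CPM in KO. The part of the myeloid signal in the results below was not tested. In bulk RNA, fewer cells of a type and less RNA per cell cannot be told apart. Replicate 3 of each group carried Y-linked counts (11376 and 5147 over 4 genes) where the other libraries had 1 to 3. Replicate 3 thus held cells of male mice, and the spread within each group includes this difference of sex. The members' values are therefore also given within replicates 1 and 2.

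Fos, the founding member of the FOS family and a classic immediate early gene, was low in control cells. Control libraries had 9.12, 7.55 and 5.54 CPM, from 150, 366 and 233 counts. KO libraries had 31.9, 41.9 and 33.04 CPM, from 841, 1569 and 650 counts. Every KO library thus stood at least 3 times as high as any control library. The level was 4.86-fold higher in KO (log2 fold change 2.28, SE 0.210, 95% interval 1.81 to 2.76, edgeR adjusted p = 0.000179). The log2 ratio was positive in each pair of equal replicate number, at 1.81, 2.47 and 2.58, and the fit to replicates 1 and 2 alone gave 2.16. Fos moved from percentile 42.04 to percentile 76.4 among 14127 tested genes ranked by CPM per kilobase of exon. The gene lies at chr12:85473890-85477273 on the plus strand, and none of its exonic bases overlap another gene.

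Fosb, a FOS relative that is induced by the same stimuli, was expressed at a low level. Control libraries had 4.01, 1.42 and 1.26 CPM, from 66, 69 and 53 counts, and KO libraries had 5.24, 4.27 and 3.66 CPM, from 138, 160 and 72 counts. Control replicate 1 lay above KO replicate 3, so the groups overlapped. The log2 fold change was 1.03 (SE 0.451, 95% interval 0.013 to 2.06, edgeR adjusted p = 0.0891). With the replicate number as a block it was 1.17 and was called (edgeR adjusted p = 0.0143), and the log2 ratios of the 3 pairs were 0.38, 1.59 and 1.54. DESeq2 also called it (1.02, adjusted p = 0.0422). Without control replicate 1 the log2 fold change was 1.64 (edgeR adjusted p = 0.00883), and without control replicate 3 it was 0.72. Replicates 1 and 2 alone gave 0.88. Fosb lies at chr7:19302696-19310051 on the minus strand, with no exon shared with another gene.

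Fosl1 encodes FRA1, a FOS-related protein without the strong activation domain of FOS. It held 5.35, 3.74 and 2.85 CPM in the control libraries and 4.90, 3.04 and 3.71 CPM in the KO libraries. These ranges overlap almost fully, and the log2 fold change of −0.02 had a 95% interval of −0.74 to 0.70 (edgeR adjusted p = 0.961). Its sign turned when scaled by library size alone (0.061). Replicates 1 and 2 alone gave −0.19. The value is uncertain for another reason: 57.2% of the exonic bases of Fosl1 (chr19:5447547-5455946, plus strand) overlap Ccdc85b on the opposite strand. The strand setting of the counting is not given in the sources used here, so reads of both genes cannot be told apart. Ccdc85b itself held 8.53 ± 1.69 CPM in control and 7.66 ± 0.961 CPM in KO (SD, n = 3; edgeR adjusted p = 0.562).

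Jun, which encodes c-JUN, 1 of the JUN proteins with which FOS proteins pair, was higher in KO, as was Fos. Control libraries had 53.9, 54.9 and 45.1 CPM, and KO libraries had 134, 142 and 157 CPM. The lowest KO library was above the highest control library by a wide margin, and the replicates within each group lay close together. Jun was 2.82-fold higher in KO (log2 fold change 1.50, SE 0.123, 95% interval 1.22 to 1.77, edgeR adjusted p = 0.000119). The pairs of equal number gave log2 ratios of 1.32, 1.37 and 1.80, and replicates 1 and 2 alone gave 1.34. Jun is a single-exon gene at chr4:95049034-95052222 on the minus strand, and 7.28% of its bases overlap Junos, an antisense RNA that starts beside it. Junos held 33, 62 and 64 counts in control and 165, 234 and 152 counts in KO, 4.27-fold higher (log2 scale 2.10, SE 0.275, edgeR adjusted p = 0.000688). Without the strand setting, the reads of Jun and Junos in the shared bases cannot be told apart. The counts of Jun ranged from 887 to 5336 per library.

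Junb, the JUN protein known as a partner of BATF in Th17 cells, was the most abundant member. Its level was 604, 733 and 546 CPM in the control libraries and 507, 545 and 574 CPM in the KO libraries. The ranges overlapped, with control replicate 2 highest. The log2 fold change was −0.21 (SE 0.141, 95% interval −0.53 to 0.11, edgeR adjusted p = 0.245), so the interval does not reach a 2-fold change in either direction. Its estimates lay between −0.36, without control replicate 3, and −0.10, without control replicate 2, with −0.35 in replicates 1 and 2 alone. Junb lies at chr8:84974484-84978718 on the minus strand, where 7.52% of its exonic bases overlap Prdx2 on the other strand.

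Jund, a JUN gene that is expressed in resting cells of many tissues, did not pass the test either. Control libraries had 53.6, 60.04 and 45.1 CPM, and KO libraries had 41.9, 56.5 and 52.005 CPM. Libraries of both groups were interleaved. The log2 fold change was −0.08 (SE 0.155, 95% interval −0.43 to 0.27, edgeR adjusted p = 0.707), and its sign turned with library size as the only scaling (0.012). Replicates 1 and 2 alone gave −0.21. In the annotation, 52.6% of its single exon (chr8:70698949-70700616, plus strand) overlaps Gm11175 on the other strand, a gene that is listed at 0 counts in every library.

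**Figure D1:**
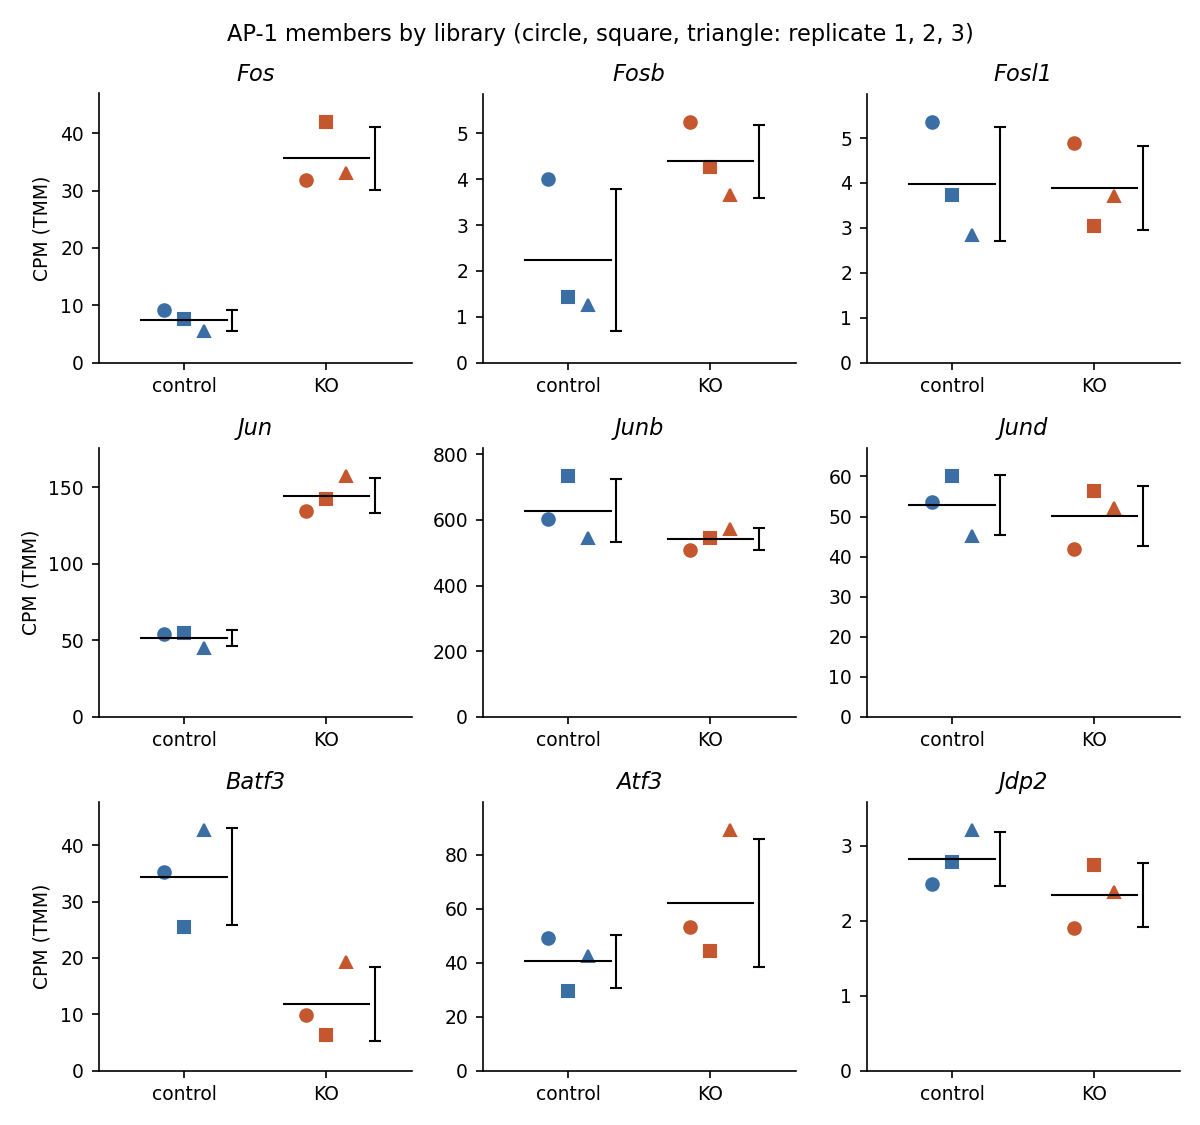
CPM after TMM scaling (vertical axis, from 0, with a separate range in each panel) of the 9 members in control (blue) and KO (orange) libraries, with circles, squares and triangles for replicates 1, 2 and 3, a line at the mean and a bar of 1 SD on either side beside it. The KO points of Fos and Jun all lie above the control points, those of Batf3 all lie below, and the other 6 panels overlap.

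Batf3 was the member that fell. It pairs with JUN proteins, is best known from the development of a class of dendritic cells, and is also expressed in activated T cells. Control libraries had 35.3, 25.4 and 42.6 CPM, from 580, 1231 and 1795 counts. KO libraries had 9.91, 6.38 and 19.2 CPM, from 261, 239 and 378 counts. The groups did not overlap, although the spread within each was wide and replicate 3 was the highest library of both. Batf3 was 2.94-fold lower in KO (log2 fold change −1.56, SE 0.369, 95% interval −2.39 to −0.72, edgeR adjusted p = 0.00891). The fit to replicates 1 and 2 alone gave −1.90, and the pair numbered 3, which has no test, gave −1.15. Its percentile by CPM per kilobase went from 83.4 in control to 60.9 in KO. Clec9a, a marker of the dendritic cells that need Batf3, was at 0 in all control libraries and at most 0.038 CPM in KO, and Itgax, a broader dendritic cell marker, reached at most 0.061 CPM in control and 0.759 CPM in KO. Batf3 lies at chr1:191097847-191108945 on the plus strand.

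Atf3, a stress-induced factor that can repress AP-1 sites, is the neighbour of Batf3. Control libraries had 49.2, 29.6 and 42.6 CPM, and KO libraries had 53.4, 44.3 and 89.1 CPM. KO replicate 3 stood apart from the other libraries, and control replicate 1 was above KO replicate 2. The log2 fold change was 0.62 (SE 0.273, 95% interval 0.0039 to 1.24, edgeR adjusted p = 0.0906). KO was higher in each pair of equal number, by log2 ratios of 0.12, 0.58 and 1.06, and with the replicate block Atf3 was called (0.59, edgeR adjusted p = 0.0142). It was also called without the filter on low counts (0.61, edgeR adjusted p = 0.0419). Without KO replicate 3 the log2 fold change was 0.27 (edgeR adjusted p = 0.36), and replicates 1 and 2 alone gave 0.32. The gene lies at chr1:191170296-191218039 on the minus strand, and 61.35 kb without another tested gene separate it from Batf3.

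Jdp2, the JUN dimerization protein, recruits repressing complexes to AP-1 sites and was the least abundant member in CPM in KO. It held 2.49, 2.79 and 3.21 CPM in the control libraries and 1.90, 2.75 and 2.39 CPM in the KO libraries, from 41 to 135 counts. The ranges overlapped (log2 fold change −0.27, SE 0.282, 95% interval −0.91 to 0.37, edgeR adjusted p = 0.454), and replicates 1 and 2 alone gave −0.18. Jdp2 (chr12:85599027-85639878, plus strand) lies 121.8 kb from Fos and 46.8 kb from Batf, with no other tested gene wholly between them. Of these 3 neighbours Fos rose, while Jdp2 and Batf (−0.25, edgeR adjusted p = 0.143) did not pass the test.

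**Figure D2:**
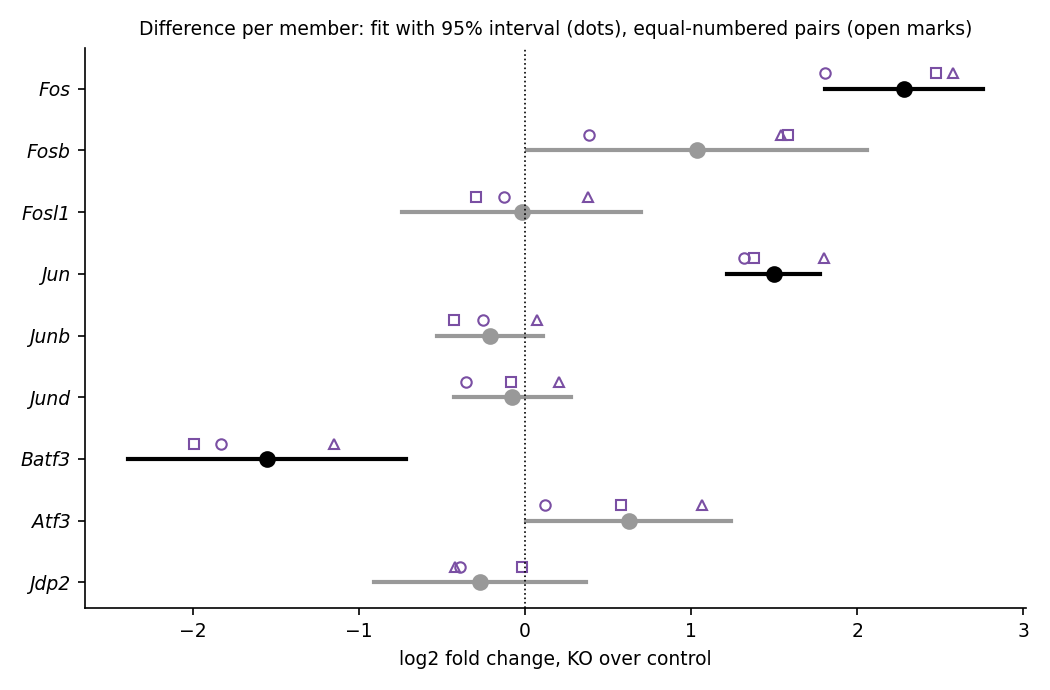
Log2 fold change of KO over control (horizontal axis) for the 9 members, with the edgeR estimate as a dot, its 95% interval as a line (black where called, grey where not), and the log2 ratios of pairs of equal replicate number as open circles, squares and triangles for replicates 1, 2 and 3. Fos (2.28) and Jun (1.50) lie to the right of 0, Batf3 (−1.56) to the left, and the intervals of Fosb and Atf3 start just above 0.

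Levels of different members were compared as CPM per kilobase of annotated exon. By this measure Junb led in control with 273 ± 41.5, followed by Jund with 31.7 ± 4.49, Batf3 with 21.6 ± 5.42, Atf3 with 18.8 ± 4.62 and Jun with 16.1 ± 1.69 (SD, n = 3). Fos (3.15 ± 0.764), Fosl1 (1.96 ± 0.623), Jdp2 (1.32 ± 0.167) and Fosb (0.358 ± 0.247) came last. In this order the libraries of Batf3 and Atf3 overlapped, as did those of Atf3 and Jun, Fos and Fosl1, and Fosl1 and Jdp2. The values of Jund and Fosl1 carry the exon overlap described above. In KO the order was Junb (236 ± 14.4), Jun (45.4 ± 3.64), Jund (30.05 ± 4.49), Atf3 (28.9 ± 11.0), Fos (15.1 ± 2.32), Batf3 (7.41 ± 4.15), Fosl1 (1.91 ± 0.462), Jdp2 (1.09 ± 0.199) and Fosb (0.703 ± 0.128). Among neighbours in that order, the libraries of Jund and Atf3 overlapped and the others did not. The last place of Fosb in KO depends on its annotated length of 6243 exonic bases. In CPM Fosb stood at 4.39 in KO, above Jdp2 at 2.35.

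The summed level of the 9 members was 368 ± 38.8 CPM per kilobase in control and 366 ± 32.4 in KO (SD, n = 3), with overlapping libraries, while its composition differed. Junb made up 72.0%, 78.1% and 71.8% of the sum in the control libraries and 65.5%, 65.6% and 62.2% in the KO libraries. The share of Jun was 4.63%, 4.22% and 4.28% in control and 12.5%, 12.4% and 12.3% in KO. Both shares were without overlap between the groups. These are descriptions of chosen members and were not tested.

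Among the 3 JUN genes alone, Jun went from 5.05% ± 0.396 to 14.6% ± 0.399 of the summed level and Junb from 85.1% ± 0.724 to 75.8% ± 0.780 (SD, n = 3). Junb stood 15.5, 18.5 and 16.8 times as high as Jun in the control libraries, and 5.23, 5.30 and 5.05 times as high in KO. Adding Fosl2, which encodes the FOS-related FRA2 and is not one of the 9, to the FOS genes shows the larger pool. Fosl2 made up 88.6% ± 3.42 of the 4 FOS genes in control and 71.6% ± 2.75 in KO, and Fos made up 6.60% ± 1.80 and 24.1% ± 2.88. Fosl2 itself stood at 414 ± 52.8 CPM without and 435 ± 38.3 CPM with the deficiency (n = 3, SD; log2 fold change 0.07, 95% interval −0.24 to 0.38, edgeR adjusted p = 0.704).

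**Figure D3:**
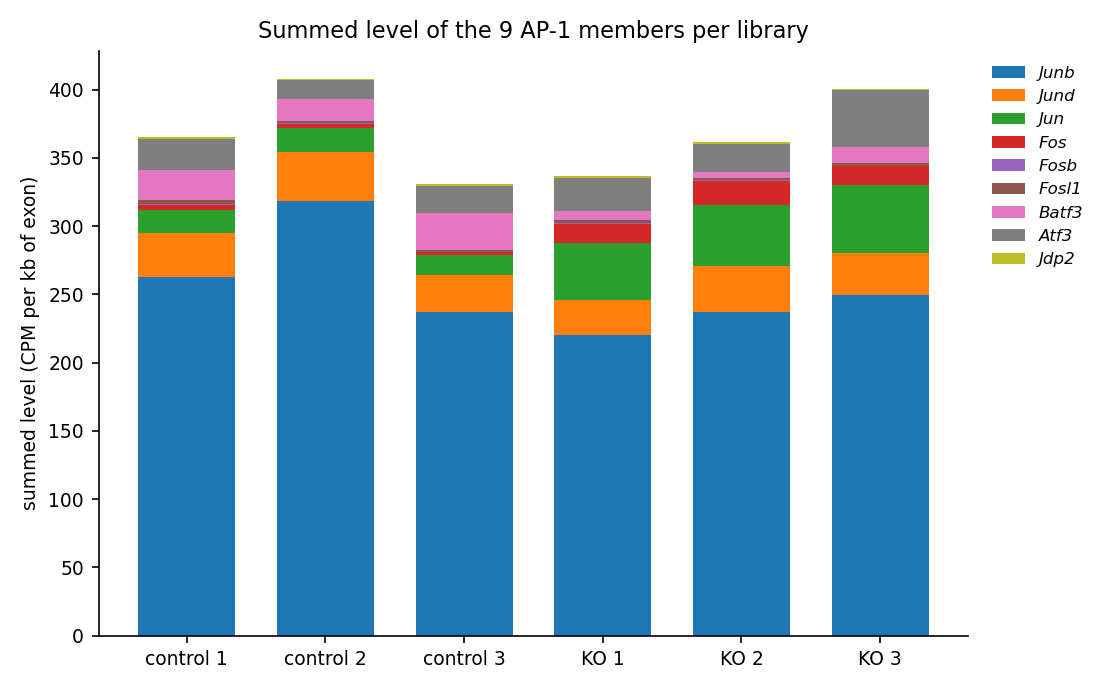
Summed level of the 9 members in each library, in CPM per kilobase of exon (vertical axis, from 0), with 1 coloured segment per member. The bars run from 331 to 408 in control and from 336 to 401 in KO, with larger Jun and Fos segments and a smaller Batf3 segment in the KO bars.

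The other AP-1 and related bZIP factors were taken as a list of 27 genes, of which 25 were tested. Of these, 5 rose and 5 fell (40% called, against 46.1% of all tested genes), with a median log2 fold change of −0.0065. Without KO replicate 3 only 3 of them fell. Mafk, a small MAF protein that lacks an activation domain, rose from 25.5 ± 1.31 to 58.8 ± 2.57 CPM (n = 3, SD; log2 fold change 1.20, edgeR adjusted p = 2.0e-04). Bach1, a repressor that pairs with small MAF proteins, rose from 8.61 ± 0.722 to 21.8 ± 3.43 CPM (1.34, edgeR adjusted p = 0.000595). Atf4, the main factor of the integrated stress response, fell from 387 ± 73.3 to 144 ± 15.3 CPM (−1.43, edgeR adjusted p = 0.000401).

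Batf2, the BATF relative known as an interferon-induced gene, had 0 counts in every control library and 31, 44 and 49 counts in the KO libraries. Against a floor of 3 counts over the whole control group it was at least 53.0-fold higher in KO, though at only 1.18, 1.17 and 2.49 CPM there. Batf2 passed the filter on low counts only through the KO libraries. Its call (edgeR adjusted p = 0.000785) is therefore no separate support for the rise, and it is among the 5 related factors counted as risen above. Among the 3 BATF genes, Batf3 made up 26.9% ± 3.83 of the summed level per kilobase in control and 12.5% ± 4.84 in KO, Batf 73.1% ± 3.83 and 86.4% ± 5.13, and Batf2 none and 1.10% ± 0.334 (SD, n = 3). The sum itself went from 79.3 ± 9.75 to 56.7 ± 10.4 CPM per kilobase. The level of Batf went from 57.7 ± 4.65 to 48.6 ± 6.28, so its larger share was not a rise. Maf, a bZIP factor of Th17 cells, held 252 ± 26.5 and 251 ± 47.4 CPM (edgeR adjusted p = 0.977). Of the IRF partners of BATF and JUN pairs, Irf4 fell from 1317 ± 21.1 to 818 ± 59.2 CPM (−0.69, edgeR adjusted p = 0.00231), and Irf8 held 86.3 ± 31.4 and 118 ± 38.9 CPM (0.45, edgeR adjusted p = 0.243). Irf8 was called with the replicate block.

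Upstream of AP-1, MAP kinases phosphorylate JUN, FOS and the ternary complex factors, which bind at the Fos gene. Of 28 tested genes of these cascades 8 rose and 6 fell (50% called, close to the 46.1% of all tested genes), with a median log2 fold change of −0.04. The count of genes that rose ran from 4, without control replicate 1 or KO replicate 2, to 10, scaled by library size alone. Over both directions 8 were called without KO replicate 2. Map2k6, a kinase that activates p38, fell from 17.1 ± 3.76 to 3.68 ± 0.541 CPM (n = 3, SD; log2 fold change −2.22, edgeR adjusted p = 0.000243). Map2k3, the other main p38 activator, moved the opposite way, from 75.8 ± 21.7 to 209 ± 23.0 CPM (1.47, edgeR adjusted p = 0.000995). Map2k4, which activates JNK, the kinase of JUN, rose from 76.5 ± 3.29 to 124 ± 13.8 CPM (0.69, edgeR adjusted p = 0.00194), and Map3k11, a kinase above it, rose too (0.82, edgeR adjusted p = 0.00114). The p38 gene Mapk14 (0.17, edgeR adjusted p = 0.328) did not pass.

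Dual-specificity phosphatases switch MAP kinases off, and several are themselves induced by them. Of 11 tested genes 5 rose and 1 fell (54.5% called, against 46.1% of all tested genes), with a median log2 fold change of 0.14. Dusp6, a phosphatase of ERK, rose from 23.9 ± 5.41 to 57.6 ± 6.93 CPM (n = 3, SD; log2 fold change 1.26, edgeR adjusted p = 0.000922). Dusp1, an immediate early gene, rose from 15.8 ± 1.99 to 31.6 ± 6.41 CPM (edgeR adjusted p = 0.00274), and Dusp5 rose as well (0.90, edgeR adjusted p = 0.00291). Dusp7 fell (−0.85, edgeR adjusted p = 0.00448). Dusp4 (0.14) and Dusp16 (−0.07), the most abundant genes of the list that were not called, had edgeR adjusted p-values of 0.336 and 0.653.

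The serum response factor and the ternary complex factors bind the serum response element of Fos. Of 7 tested genes 3 rose, the ternary complex factors. The share called, 42.9%, was near the 46.1% of all tested genes called in either direction, while 23.2% of all tested genes were called higher. Elk4 rose from 129 ± 15.2 to 250.1 ± 14.2 CPM, Elk3 from 51.8 ± 0.0271 to 83.1 ± 9.07 CPM and Elk1 from 15.3 ± 0.326 to 20.9 ± 1.22 CPM (SD, n = 3). Their log2 fold changes were 0.95, 0.68 and 0.45, with edgeR adjusted p-values of 0.00067, 0.002 and 0.0217. Elk1 was no longer called in 4 of the 6 leave-one-out fits (without either of control replicates 1 and 2 or KO replicates 1 and 2). Srf held 54.7 ± 3.02 and 53.2 ± 3.24 CPM (edgeR adjusted p = 0.779), and Mkl1, a coactivator of SRF, 47.3 ± 2.52 and 49.8 ± 3.64 CPM (edgeR adjusted p = 0.628).

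The list of other immediate early genes is mixed, and not all of them are induced by the same signals as Fos. Of 32 tested genes 22 were called, 18 higher and 4 lower. That is 68.8% against 46.1% of all tested genes, with a median log2 fold change of 0.74 against 0.013. The number that fell was 2 when only library size was used, and also without KO replicate 1 or KO replicate 2. Klf4, a zinc finger factor that restrains T cell proliferation, rose from 3.14 ± 0.740 to 30.2 ± 8.91 CPM (n = 3, SD; log2 fold change 3.28, edgeR adjusted p = 0.000132). Zfp36l1, which promotes the decay of AU-rich mRNAs, rose from 24.6 ± 2.64 to 119 ± 10.7 CPM (2.28, edgeR adjusted p = 3.9e-05), and Ier5 from 46.5 ± 7.10 to 167 ± 20.4 CPM (1.85, edgeR adjusted p = 0.000114). Btg2, an antiproliferative gene, rose from 55.0 ± 1.07 to 331 ± 55.4 CPM (2.59, edgeR adjusted p = 3.9e-05). Klf6 (−0.14, edgeR adjusted p = 0.308) and Nfkbia (−0.07, edgeR adjusted p = 0.742) were the most abundant that were not called.

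Ubiquitin ligases and related proteins that act on JUN or FOS proteins were tested in 7 genes, of which 2 fell. That is 28.6%, where 22.9% of all tested genes fell and 46.1% were called in either direction. Kdm2b fell from 104 ± 8.79 to 78.3 ± 9.29 CPM (n = 3, SD; log2 fold change −0.41, edgeR adjusted p = 0.0256). Nedd4 fell from 96.3 ± 42.5 to 57.8 ± 6.72 CPM (−0.74, edgeR adjusted p = 0.0472). Neither was called when only library size was used for scaling, nor without KO replicate 1 or KO replicate 2. Kdm2b was also lost without control replicate 1 or 2, and Nedd4 without KO replicate 3 or with upper-quartile scaling, and with replicates 1 and 2 alone Nedd4 was −0.29. Itch, the best-known ligase of JUN proteins in T cells (0.11, edgeR adjusted p = 0.385), did not pass.

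Genes whose promoters carry textbook AP-1 sites moved in both directions. Of 21 tested genes 6 rose and 8 fell (66.7% called, against 46.1% of all tested genes), with a median log2 fold change of −0.13. Without control replicate 1 or KO replicate 2, 9 were called, of which 4 fell. Plaur, the urokinase receptor, rose from 8.01 ± 1.65 to 74.1 ± 11.0 CPM (n = 3, SD; log2 fold change 3.21, edgeR adjusted p = 4.8e-05), and Ccnd1, cyclin D1, from 0.676 ± 0.247 to 4.42 ± 0.336 CPM (2.70, edgeR adjusted p = 0.000679). Plaur is also abundant in myeloid cells, whose 8 markers summed to at most 0.851 CPM in control and 4.40 CPM in KO. Their part in the level of Plaur was not tested. Lif, a cytokine of the interleukin 6 family, fell from 796 ± 60.3 to 162 ± 29.8 CPM (−2.30, edgeR adjusted p = 6.9e-05), and Il2ra, a subunit of the interleukin 2 receptor, fell as well (−1.52, edgeR adjusted p = 0.000264). Vim (−0.13, edgeR adjusted p = 0.536) and Tnf (0.46, edgeR adjusted p = 0.0667) were not called, and Tnf was called with the replicate block, without control replicate 2, with library size alone and without the filter.

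**Figure D4:**
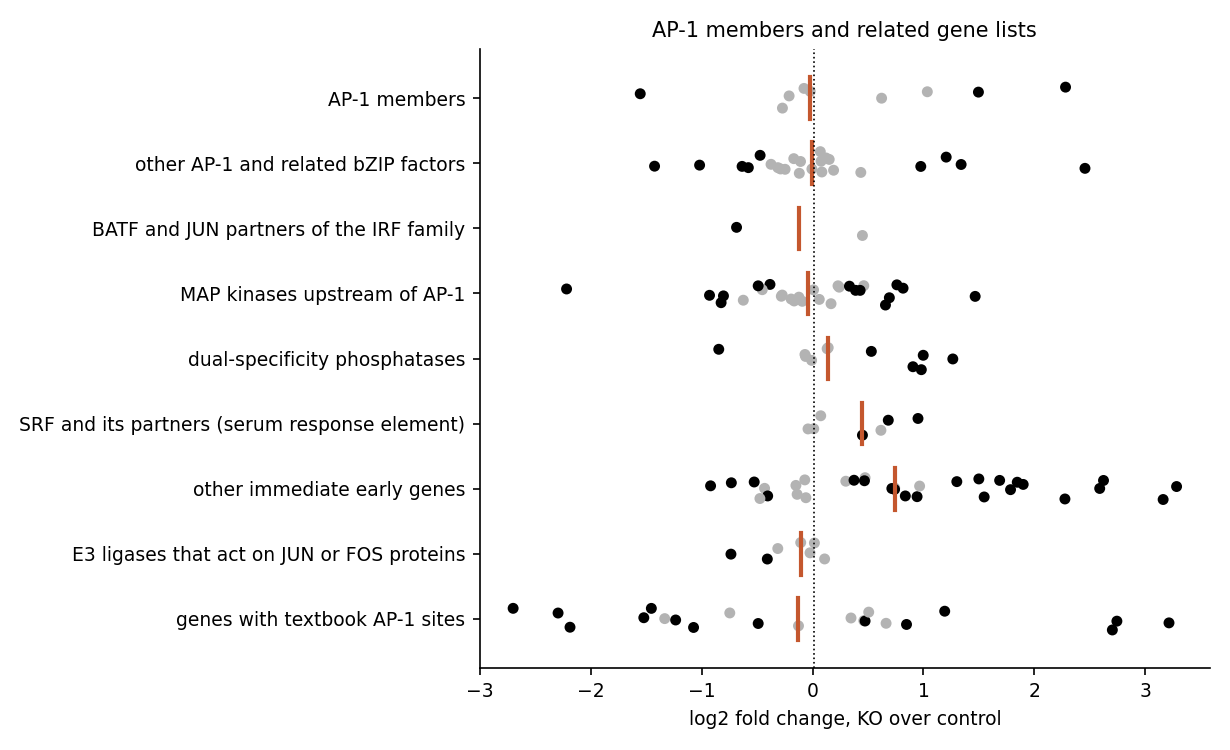
Log2 fold change of KO over control (horizontal axis) for each tested gene of the members and of 8 related lists, black where called and grey where not, with an orange line at the list's median and a dotted line at the median of all tested genes (0.013). Batf2, with no control count, is left out of the points. Immediate early genes have the median farthest to the right (0.74), and the members spread to both sides.

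Across the 6 libraries Fos and Jun followed each other closely, with a Pearson correlation of log2 CPM of 0.986, and Batf3 ran against both (−0.889 with Fos and −0.835 with Jun). Junb correlated most with Jund among the members (0.769). These values are descriptions over 6 libraries that share the group difference. A search over 9426 other tested genes (standard symbols only, averaging 5 CPM or more) ranked them by the same correlation. The highest of so many values over 6 libraries can be large by selection alone, and none was tested against chance. The pattern of Fos was most like those of Tgfbrap1 (0.99857) and Camsap2 (0.99843), and that of Jun most like those of Mndal (0.99907) and Serpine2 (0.99882). For Batf3 they were Desi1 (0.99557) and Cntrl (0.99464), for Fosb Jcad (0.99738) and Mtfmt (0.98968), and for Atf3 Fbxo7 (0.99247) and Gas2l1 (0.97870). For Junb they were Hmgcs1 (0.98801) and Fcf1 (0.98394), for Jund Med9 (0.90860) and Klhl36 (0.90590), for Fosl1 Ints1 (0.98850) and Nt5dc3 (0.97756), and for Jdp2 Aspscr1 (0.98461) and Pnrc2 (0.98024). Such a correlation does not compare the size of change. Desi1 (log2 fold change −0.17) and Cntrl (−0.27) were not called, where Batf3 stood at −1.56. Mndal stood at 5.19, where Jun stood at 1.50.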

How the data were processed

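RNA sequencing of 3 control and 3 KO libraries was taken from 1 table. The authors deposited raw counts per gene symbol (0 columns without a sample, 0 rows without a gene name). Per the submitters' processing notes, STAR, featureCounts, DESeq2 and mm10 were used, and their versions, strand setting and annotation are not given in the sources used here. Groups and replicate numbers come from the sample titles, and columns were matched by the sample descriptions.

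Counts were tested with edgeR 4.0.16 (R 4.3.3; quasi-likelihood test, TMM factors, filterByExpr by group, Benjamini-Hochberg over all genes) for KO against control over all 6 libraries. The standard error is the absolute log2 fold change over the square root of F. Reads carry no stated molecular identifiers, so counting error is only part of the spread. Annotation is GENCODE M21 on GRCm38, the assembly that mm10 names, and levels per kilobase divide CPM by all annotated exonic bases of a gene, which gave a length for 99% of the tested genes. Log2 CPM for correlations used a prior count of 2. Motifs were searched in RefSeq promoters.

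The members and lists were chosen with earlier results of these data known. Named beside the members were Rtf1, the markers, and in each list the 4 called genes with the smallest adjusted p and the 2 most abundant not called, plus the 2 genes most like each member. Batf and the genes that overlap members were named for their position. Values of some genes that this rule names are not reported here. Equal replicate numbers were read as pairs, since libraries of equal number deviated together from their group means (correlations across genes of 0.270, 0.130 and 0.379). Unequal numbers gave −0.390 to 0.204, the highest being control replicate 2 with KO replicate 1, above the 0.130 of the pair numbered 2, which has the least support. Alternatives were DESeq2 1.42.0 as the test, 3 other scalings, 2 other filters, the replicate block, each library left out, and replicates 1 and 2 alone. The scalings of the pattern correlations were added after seeing the data. The test was checked on simulated data of 14052 genes, with 100 genes changed at each fold. It recovered 69% of the 2-fold and 79% of the 4-fold changes and called 0.0866% of the unchanged genes. Far fewer genes were changed there than were called here.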

Additional observations from a re-analysis of the deposited data

How the results depend on the processing

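Fos, Jun and Batf3 kept their direction and their call under all 14 alternatives. When 1 library was left out, Fos lay between 2.05 and 2.37, Jun between 1.35 and 1.54 and Batf3 between −2.08 and −1.24 (log2 fold change). The count of members called was 3 in the main test, 5 with the replicate block (Fosb and Atf3 in addition), and 3 to 4 when 1 library was left out. The block changed no other member's call. The count over all genes, 6574, was 7628 with the block and 4460 to 7050 with 1 library left out, and the count of genes that fell, 3269, was 2170 without KO replicate 2. The cause of these shifts was not tested.

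Signs turned for named genes that were not called. With library size as the only scaling, Fosl1 was 0.061, Jund 0.012, Maf 0.080, Dusp16 0.017, Srf 0.048 and Nfkbia 0.014. That scaling put the median of all genes at 0.10. With replicates 1 and 2 alone, Maf was 0.19 and Vim 0.040. With 1 library left out, the range was −0.26 to 0.16 for Fosl1, −0.24 to 0.031 for Jund, −0.037 to 0.13 for Fosl2, −0.13 to 0.14 for Maf, −0.033 to 0.11 for Mkl1 and −0.25 to 0.074 for Nfkbia. The correlations with the most similar genes lay between 0.82629 and 0.99959 under 3 other scalings. Fosb, Fosl1 and Jdp2 had at most 181 counts in a library.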
